A study of Mus musculus with 64 samples.

Results

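The SLAM (signaling lymphocytic activation molecule) family is a set of paired immunoglobulin-like receptors on white blood cells, most of which bind a copy of themselves on a neighbouring cell. The tails of many members carry switch motifs that recruit small SH2 adaptors, among them SAP (Sh2d1a) and EAT-2 (Sh2d1b1), or inhibitory phosphatases. In macrophages they are known for roles in cell contact, phagocytosis and the oxidative burst, and several are present on microglia, the resident macrophages of the retina. Here 6 of the 25239 genes in the batch-corrected count table were followed, namely Slamf7, Slamf8, Slamf9, Ly9, Cd48 and Cd84. The set was chosen by a readout of these libraries, since Slamf7 was much higher after the vector, so the comparison of Slamf7 with naive is given as a description, without a test. The other 5 members were compared with naive by tests over all genes.

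Microglia were sorted as 600 tdTomato-high, DRAQ7-negative cells from single retinas. The mice were Cx3cr1CreER:R26-tdTomato heterozygotes, bred on C57BL/6J, of both sexes and 3, 9 or 18 months of age. All mice had received tamoxifen eye drops, naive controls included, followed by a washout of several weeks to favour labelling of microglia, and Cx3cr1 also drives Cre in other myeloid cells. The naive eyes had no injection, and the others were taken at day 12 or day 28 after an intravitreal AAV2 vector without a transgene at 10000000000 genome copies per eye. Per the study's methods the vector also carried a sequence that inhibits TLR9, a sensor of viral DNA. No library came from a sham-injected eye, so the injection and the vector cannot be told apart here. With 1 library left out by the rule, 62 libraries remained, 19 naive, 22 at day 12 and 21 at day 28, in 18 groups of 2 to 4. Per the study's methods the fellow eyes went to flow cytometry or staining, so each library stands for the retina of a different mouse. Corrected counts summed to between 1468478 and 9836173 per library, and values are given as CPM, the counts scaled to that total. All 8 microglial markers were detected, and their summed level was 32737 CPM (median) in naive libraries, 14035 CPM at day 12 and 21543 CPM at day 28. Markers of T cells, NK cells and monocytes, which also express SLAM receptors, moved with the vector too. The 9 T cell markers summed to 1.60 CPM (range 0 to 192) in naive libraries, 129 CPM (1.60 to 411) at day 12 and 75.4 CPM (14.8 to 195) at day 28. The 6 NK cell markers summed to 0.398 CPM (0 to 203), 109 CPM (2.67 to 537) and 56.6 CPM (1.04 to 249.01). The 6 monocyte markers summed to 13.8 CPM (0.226 to 149), 63.2 CPM (4.66 to 954) and 8.27 CPM (0.19 to 53.6). In bulk samples, fewer cells of a type and less RNA per cell cannot be told apart.

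The 6 genes lie on mouse chromosome 1 within 1002 kb (RefSeq, GRCm38.p6), in the order Ly9 (chr1:171588613-171607410), Slamf7 (chr1:171632403-171653037), Cd48 (chr1:171681245-171705258), Cd84 (chr1:171839697-171890718), Slamf9 (chr1:172458569-172478421) and Slamf8 (chr1:172581377-172590873). The RefSeq promoter table held an entry for 5 of the 6, and Ly9 was not among them. The 200 bases before the annotated start are shown for Slamf7, the member with the largest difference, and for Slamf8 and Slamf9. These are the members furthest from Slamf7, with other genes between them, and their levels moved in opposite ways between the days. Capitals mark matches, on either strand, to an interferon-stimulated response element (ISRE) or to the core bound by PU.1 (AGGAAG).
Slamf7, chr1:171649000-171649199, minus strand: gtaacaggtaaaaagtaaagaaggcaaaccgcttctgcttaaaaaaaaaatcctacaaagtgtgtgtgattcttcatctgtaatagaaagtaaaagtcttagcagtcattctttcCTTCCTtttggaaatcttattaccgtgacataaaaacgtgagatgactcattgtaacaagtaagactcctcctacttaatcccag
Slamf8, chr1:172590569-172590768, minus strand: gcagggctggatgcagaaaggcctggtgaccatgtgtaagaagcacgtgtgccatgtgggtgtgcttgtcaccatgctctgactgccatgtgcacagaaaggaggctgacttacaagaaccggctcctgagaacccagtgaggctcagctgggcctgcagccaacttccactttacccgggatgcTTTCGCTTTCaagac
Slamf9, chr1:172475160-172475359, plus strand: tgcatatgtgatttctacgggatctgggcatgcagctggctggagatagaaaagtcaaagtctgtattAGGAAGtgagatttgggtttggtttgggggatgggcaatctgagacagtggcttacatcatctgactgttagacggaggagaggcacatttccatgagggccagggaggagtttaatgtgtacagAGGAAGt

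Among the 5 members with an entry, only the Slamf8 entry held the interferon-type motif, from 15 to 6 bases before the start, and 3.44% of the 32851 promoters of the same length hold it. The gamma-activated motif TTCNNNGAA was in none of these 5 entries, against 8.30% of all promoters. The PU.1 core was in the entries of Slamf7, Slamf9, Cd48 and Cd84, and 35.4% of all promoters hold it. These are matches of letters and no measure of binding. The Slamf7, Slamf8, Slamf9 and Cd48 entries are of starts inside the longer spans that RefSeq gives these genes. That of Slamf9 is the furthest inside, following chr1:172475359 in a plus-strand span that begins at chr1:172458569.

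Slamf7 (CRACC, a receptor that binds itself and, in macrophages, takes part in phagocytosis with integrin Mac-1) was near the bottom of the range in naive microglia and high at both days after the vector. In 3-month females it was at 4.78, 3.57, 13.4 and 3.17 CPM in the naive libraries, 320.5, 284, 343 and 305 CPM at day 12, and 135, 189, 189 and 391 CPM at day 28. In 3-month males it was at 6.33, 14.1 and 17.2 CPM in naive libraries, 295, 338, 353 and 528 CPM at day 12, and 359, 367 and 155 CPM at day 28. At this age every library after the vector was above every naive library, and the group means at day 12 were 50.3 times the naive mean in females and 30.1 times in males.

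In 9-month males Slamf7 was at 7.34 and 2.85 CPM in the 2 naive libraries, 279, 139, 377 and 397 CPM at day 12, and 295, 202 and 206 CPM at day 28. In 9-month females the naive libraries were at 211, 21.9 and 34.9 CPM, against 384, 77.0 and 152 CPM at day 12 and 163, 431, 369.8 and 273 CPM at day 28. The groups overlapped only in these females, through 1 naive library (replicate 1) at 211 CPM, from 913 counts. In that library the T cell markers summed to 0 and the NK cell markers to 0.231 CPM, and Slamf8 stood at 52.9 CPM. Without it, the fitted log2 difference of day 12 from naive in 9-month females went from 1.39 to 2.95, and that of day 28 from 1.98 to 3.53. Without the day 12 library at 384 CPM (replicate 1), the day 12 difference was 0.18, and the fitted log2 difference of day 28 from day 12 went from 0.59 to 1.80.

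In 18-month males Slamf7 was at 9.96, 11.5, 22.2 and 16.2 CPM in naive libraries, 342, 410.4 and 289 CPM at day 12, and 296, 215, 265 and 116 CPM at day 28. The library at 116 CPM carries day 28 in its title and day 12 in another label, and was kept at day 28. In 18-month females the naive libraries were at 35.7, 7.35 and 38.0 CPM, those at day 12 at 53.4, 46.2, 314 and 67.2 CPM, and those at day 28 at 293, 239 and 199.8 CPM. The groups did not overlap, but 3 of the 4 day 12 libraries were far below the other one. In replicates 1 and 2 of these the T cell markers summed to 1.60 and 12.5 CPM and the microglial markers to 32314 and 26993 CPM. The other day 12 pair, replicates 3 and 4, had T cell sums of 382 and 180 CPM and microglial sums of 11722 and 11673 CPM. Without replicate 3, the fitted log2 difference of day 12 from naive went from 2.42 to 1.20, and that of day 28 from day 12 from 0.81 to 2.03.

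**Figure D1:**
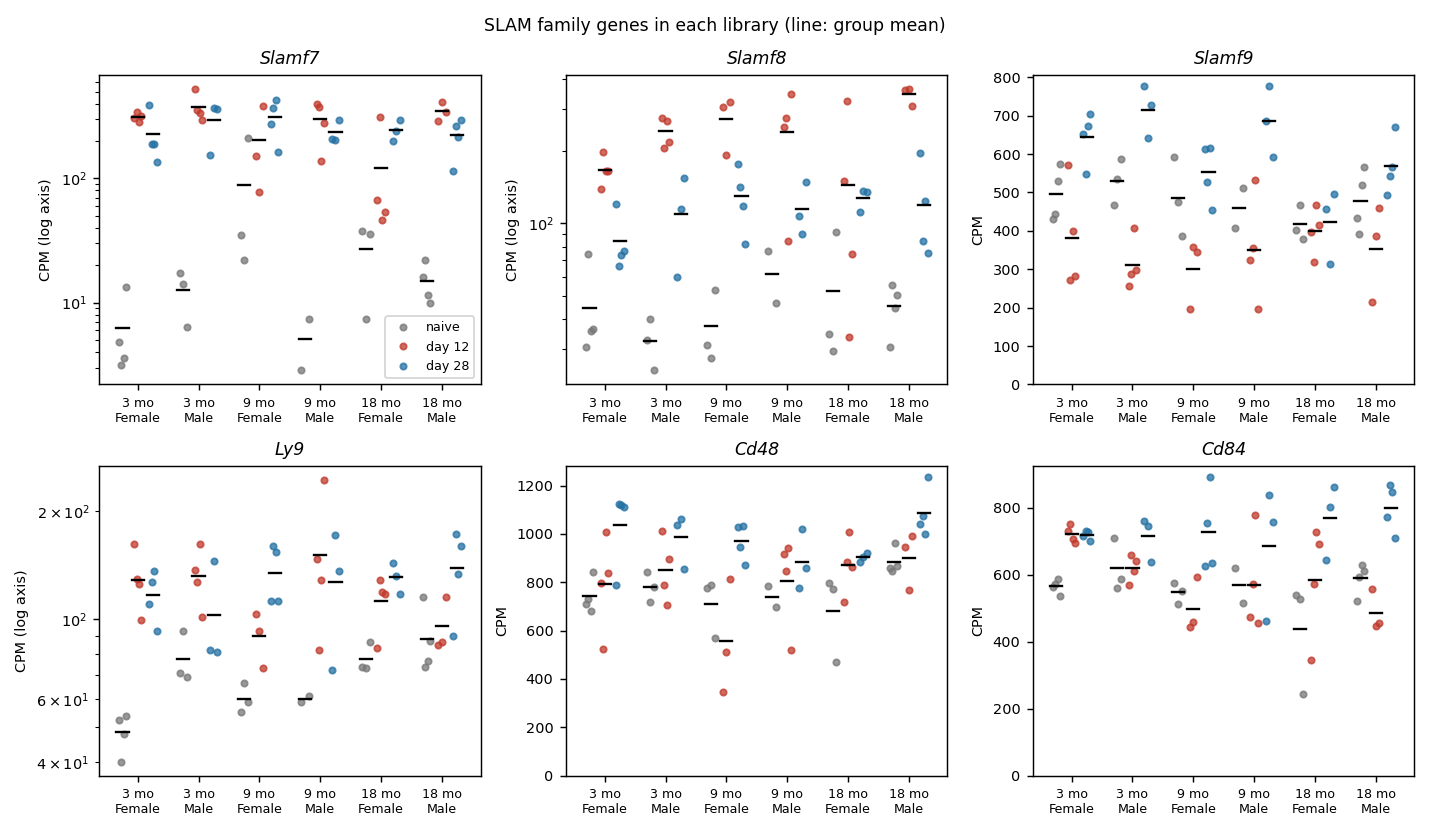
CPM of the 6 genes in each of 62 libraries (points) by age, sex and time, with the group mean as a line and the y axis logarithmic for Slamf7, Slamf8 and Ly9 and linear from 0 for the others. Slamf7 is at or under 38.0 CPM in 18 of 19 naive libraries and above that in all 43 libraries after the vector, of which 28 are above the highest naive library.

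Over all ages and sexes, 18 of the 19 naive libraries were at or under 38.0 CPM of Slamf7, and all 43 libraries after the vector were above that value, which is the second highest naive level and was picked after the values were seen. Against the highest naive library, at 211 CPM, 28 of the 43 were above. Slamf7 was above every naive library of its age and sex in 20 of 22 libraries at day 12 and 20 of 21 at day 28. Here and elsewhere in this text, such counts of libraries without overlap were not made over all genes. With 2 to 4 naive libraries per group, a gene that did not move can also lie above or below all of them. These counts are therefore descriptions. The order of the group means ran from 5.10 CPM ± 3.17 (SD, n = 2) in naive 9-month males to 378 CPM ± 103 (n = 4) at day 12 in 3-month males. The 6 naive means held the 6 lowest places, the highest of them 89.2 CPM ± 105 (n = 3) in 9-month females, with 120.3 CPM ± 129.7 (n = 4) in 18-month females at day 12 next to it. Those neighbours overlap within their SDs, and so does each of the other 11 means after the vector, which lay between 204 and 378 CPM, with the next.

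The libraries were collected on 2 days, 27 on one and 35 on the other, and the deposited correction was for these. In uncorrected counts with the sexes together, the log2 ratio of mean Slamf7 at day 12 over naive was 5.70 and 5.23 on the 2 collection days at 3 months, 1.44 and 3.59 at 9 months, and 2.80 and 3.93 at 18 months. It was above 0 in all 6. The ratio of day 28 over day 12 was -0.46 and -0.43 at 3 months, but differed in sign between the collection days at 9 months (-0.30 and 0.52) and at 18 months (0.86 and -0.42).

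The summed T and NK cell markers and Slamf7 were all higher after the vector, and the part of lymphocyte RNA in the Slamf7 value was not tested. Naive 18-month male replicate 2 had the highest naive T cell sum, 192 CPM, an NK cell sum of 193 CPM and Slamf7 at 11.5 CPM. Replicate 4 of that group had sums of 113 and 203 CPM and Slamf7 at 16.2 CPM. The 4 day 28 libraries of 3-month females had T cell sums of 14.8 to 29.7 CPM and NK cell sums of 30.0 to 40.7 CPM, with Slamf7 at 135 to 391 CPM. In 18-month females at day 12, Slamf7 was at 53.4 and 46.2 CPM with T cell sums of 1.60 and 12.5 CPM, and at 314 CPM with a T cell sum of 382 CPM and an NK cell sum of 537 CPM. The remaining library of that group, replicate 4, had Slamf7 at 67.2 CPM with a T cell sum of 180 CPM and an NK cell sum of 204 CPM. Its monocyte sum was 954 CPM.

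**Figure D2:**
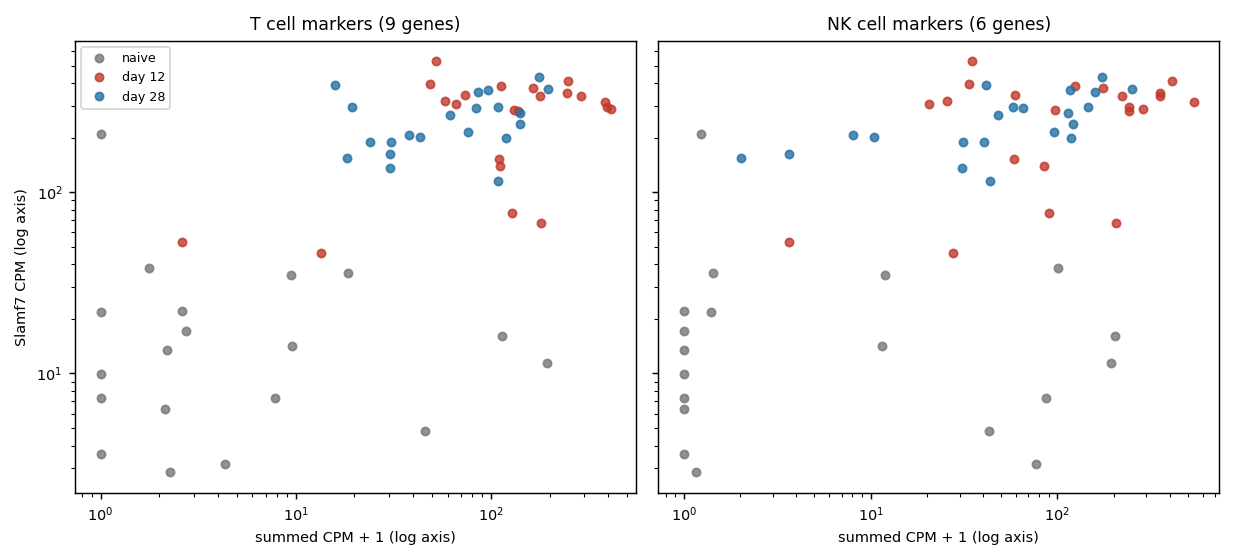
Slamf7 in each library (y axis, CPM, log) against the summed CPM + 1 (x axis, log) of 9 T cell markers on the left and 6 NK cell markers on the right, coloured by time. Naive libraries with T cell sums over 100 CPM lie low, at 11.5 and 16.2 CPM, and 1 naive library with sums near 0 lies at 211 CPM.

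Slamf8 (BLAME, a receptor with a short tail that has been described as a brake on NADPH oxidase 2 in macrophages) passed its test at day 12 in 4 of the 6 age and sex groups. In fitted value it was above naive at day 12 in all 6, and lower at day 28 than at day 12 in all 6. In 3-month males it was at 24.4, 39.9 and 32.8 CPM in naive libraries, 219, 266, 206 and 275 CPM at day 12, and 154, 115 and 59.7 CPM at day 28. In 18-month males it was at 50.1, 44.2, 55.5 and 30.5 CPM, then 309, 364 and 360.3 CPM, then 75.5, 123, 84.4 and 195 CPM. In 3-month females the naive libraries were at 30.6, 35.7, 36.4 and 74.2 CPM, with 165, 165, 197 and 138 CPM at day 12 and 76.6, 73.7, 66.4 and 121 CPM at day 28. In 9-month females they were at 52.9, 27.5 and 31.2 CPM, with 319.9, 192 and 306 CPM at day 12 and 82.2, 118, 142 and 176 CPM at day 28. In each of these 4 groups every day 12 library was above every naive one.

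With edgeR's test against a log2 fold change of 1 and Benjamini-Hochberg adjustment over all genes tested, the log2 fold change of Slamf8 at day 12 was 2.04 ± 0.27 (SE) in 3-month females (adjusted p = 0.00475), 3.00 ± 0.28 in 3-month males (1.59e-05), 2.90 ± 0.40 in 9-month females (0.0036) and 3.08 ± 0.30 in 18-month males (4.84e-05). The same test missed the threshold of 0.05 in the remaining groups. In 9-month males Slamf8 was at 46.6 and 76.4 CPM in naive libraries and 346, 84.7, 274 and 251 CPM at day 12, and 148, 89.8 and 107 CPM at day 28, with a log2 difference at day 12 of 2.10 ± 0.52 (edgeR adjusted p = 0.204). In 18-month females it was at 91.9, 29.4 and 34.7 CPM and 74.2, 33.5, 321 and 149.8 CPM, and 136, 136 and 111 CPM at day 28, with a log2 difference at day 12 of 1.77 ± 0.69 (edgeR adjusted p close to 1). The low day 12 values, 84.7 CPM in 9-month males and 74.2 and 33.5 CPM in 18-month females, came from the 3 day 12 libraries with the highest microglial marker sums (28418, 32314 and 26993 CPM), and their monocyte sums were 6.09, 10.7 and 7.22 CPM. Leaving out each library in turn gave 4 or 5 passed tests of members at day 12.

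Slamf8 gave all 4 calls among the 30 tests of the 5 members at day 12. Over all genes, the share that passed was 2.43% in 3-month females, 3.77% in 3-month males, 2.52% in 9-month females, 0.954% in 9-month males, 0% in 18-month females and 4.16% in 18-month males. In 18-month females, where edgeR called 0 of 11159 genes, 485 had an unadjusted p under 0.05 and DESeq2 called 8. Ly9, Cd48, Cd84 and Slamf9 passed in none of the 6 groups.

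Ly9 (SLAMF3, a receptor that binds itself) had a fitted level above naive in every group at both days, and passed the test against a log2 fold change of 1 in none. Its log2 difference at day 12 lay between 0.28 in 18-month males and 1.54 ± 0.23 in 3-month females, where edgeR's adjusted p was 0.1003. In those females it was at 52.4, 47.9, 53.9 and 40.2 CPM in naive libraries, 99.2, 125, 129.6 and 162 CPM at day 12, and 92.9, 136, 127 and 110.1 CPM at day 28, with no overlap between naive and either day. In 9-month males Ly9 was at 61.0 and 59.0 CPM in naive libraries, 244, 128, 82.3 and 147 CPM at day 12, and 136, 171 and 72.2 CPM at day 28, again without overlap. In 18-month males the groups overlapped, at 87.1, 76.6, 73.8 and 115 CPM in naive libraries, 115, 86.2 and 84.99 CPM at day 12, and 159.8, 134, 173 and 90.1 CPM at day 28. Ly9 was above every naive library of its age and sex in 19 of 22 libraries at day 12 and 18 of 21 at day 28. At day 28 its difference from naive lay between 0.50 in 3-month males and 1.45 in 3-month females.

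Cd48, the glycolipid-anchored ligand of CD244 and CD2, and Cd84, a receptor that binds itself, were abundant in naive microglia and moved little. Cd48 was at 763 CPM ± 111 (SD, n = 19) in naive libraries, 802 CPM ± 184 (n = 22) at day 12 and 986 CPM ± 121 (n = 21) at day 28. Cd84 was at 556 CPM ± 89.5, 588 CPM ± 122 and 737 CPM ± 101. In the 6 groups the log2 difference of day 28 from naive was 0.38 to 0.66 for Cd48 and 0.29 to 0.90 for Cd84, above 0 in 6 of 6 for both. For each of these genes, 19 of 21 day 28 libraries were above every naive library of their age and sex, against 11 of 22 (Cd48) and 9 of 22 (Cd84) at day 12. The share of all genes with such counts was not computed. In 18-month females Cd84 was at 243, 528 and 539 CPM in naive libraries, 692, 726, 573 and 345 CPM at day 12, and 860.3, 802 and 644 CPM at day 28, so that only day 28 was clear of naive. Slamf9, a receptor with a short tail like that of Slamf8, was lower at day 12 than in naive libraries in 5 of 6 groups (log2 -0.69 to 0.13) and higher at day 28 in 6 of 6 (0.12 to 0.70). In 3-month males its naive libraries were at 588, 535 and 467 CPM, and in 18-month females, where the days differed least, it was at 379, 468 and 403 CPM in naive libraries, 415, 468, 319 and 397 CPM at day 12, and 496, 314 and 456 CPM at day 28. At day 12, 16 of 22 libraries were below every naive library of their age and sex, and at day 28, 14 of 21 were above every one of them.

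Per kb of exon, which allows genes to be compared, Cd48 stood highest in naive libraries at 642 CPM per kb ± 93.1 (SD, n = 19), followed by Slamf9 at 365 ± 54.6 and Cd84 at 88.7 ± 14.3. Ly9 at 27.8 ± 7.14 and Slamf8 at 26.8 ± 11.2 overlapped, and Slamf7 was lowest at 6.37 ± 11.6. At day 12 Slamf8 stood at 137 ± 57.8 and Slamf7 at 69.7 ± 33.0 CPM per kb, both above the naive level of Ly9. At day 28 Slamf8, at 68.6 ± 22.3, and Slamf7, at 64.1 ± 22.7, were within their spread of each other.

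**Figure D3:**
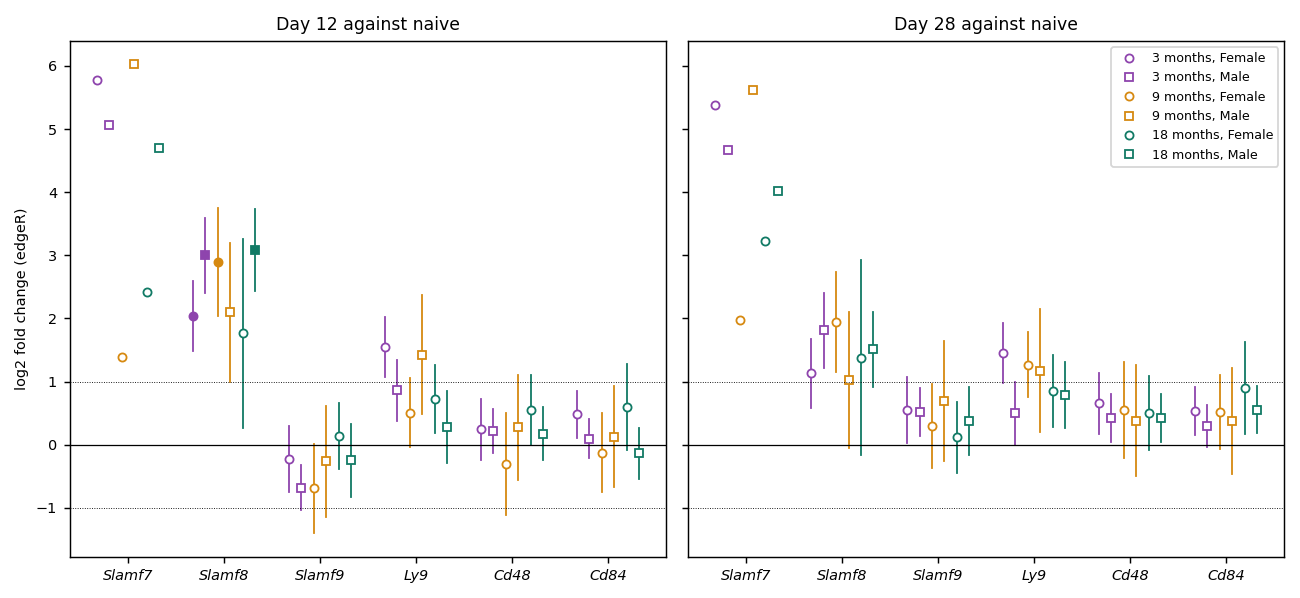
Fitted log2 fold change against naive for each gene, age and sex, at day 12 (left) and day 28 (right), with 95% intervals except for Slamf7, which chose the set, and with filled points where edgeR's test against a log2 fold change of 1 (dotted lines) was passed. Only Slamf8 has filled points, 4 at day 12 and none at day 28.

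At day 28, edgeR called 0 of the 30 tests of the 5 members against naive. Of these, 5 had an unadjusted p under 0.05, and DESeq2 called 0. Over all genes the share that passed was 0.44% in 3-month females, 0.701% in 3-month males, 0.461% in 9-month females, 0.129% in 9-month males, 0% in 18-month females and 0.684% in 18-month males. In the 18-month females 371 of 11159 genes had an unadjusted p under 0.05, and DESeq2 called 15. Slamf8 was still above naive in fitted value in all 6 groups, by log2 1.02 to 1.95, and Slamf7 by 1.98 to 5.62.

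A test against a log2 fold change of 0 with both sexes of an age in one fit, chosen after seeing the data, asks whether a level moved at all. With it (edgeR, adjusted p under 0.05) Slamf8 rose at both days and all 3 ages, by log2 2.43 to 2.52 at day 12 and 1.39 to 1.54 at day 28. Ly9 rose at day 12 at 3 and 9 months (log2 1.22 and 1.01) and at day 28 at all 3 ages (1.03, 1.23 and 0.81 at 3, 9 and 18 months). Cd84 rose at 3 months on both days (0.30 and 0.43) and at 18 months on day 28 (0.68), and Cd48 only at 3 months on day 28 (0.56). Slamf9 passed in none, with edgeR adjusted p = 0.0532 at day 12 and 0.0517 at day 28 at 3 months. Under this test 24.3%, 15.6% and 14.5% of all genes passed at day 12 at 3, 9 and 18 months, and 6.81%, 2.64% and 3.63% at day 28, so the 5 members passed in 6 of 15 tests at day 12 and 9 of 15 at day 28.

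Between day 12 and day 28 the members went different ways. Slamf8 fell in 3-month females (log2 -0.91 ± 0.26, adjusted p = 0.086), 3-month males (-1.18 ± 0.25, 0.0127) and 18-month males (-1.57 ± 0.29, 0.00493), by edgeR at the 0.1 threshold used between days. In 18-month males its 3 day 12 libraries (309 to 364 CPM) were all above the 4 at day 28 (75.5 to 195 CPM). The fitted difference was also below 0 in the other 3 groups, at -0.95 and -1.08 in 9-month females and males and -0.39 in 18-month females.

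Within each collection day, in uncorrected counts with the sexes together, the log2 ratio of mean Slamf8 at day 28 over day 12 was -1.03 and -1.12 at 3 months, -1.09 and -0.98 at 9 months, and -0.31 and -1.15 at 18 months. For Slamf9 it was 1.26 and 0.75, 0.64 and 1.05, and 0.43 and 0.47.

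Slamf9 rose from day 12 to day 28 in 3-month males, from 298, 407, 287 and 256 CPM to 728, 642 and 776 CPM (log2 1.20 ± 0.17, edgeR adjusted p = 0.000497), and there the days did not overlap. Its difference was 0.63 to 0.99 in 4 of the other groups and -0.02 in 18-month females. Cd84 rose in 18-month males, from 454, 446 and 558 CPM to 708, 848, 868 and 772 CPM (0.69 ± 0.19, edgeR adjusted p = 0.053). That call for Cd84 was lost when the library with 2 day labels was placed at day 12 (0.56, edgeR adjusted p = 0.242), and on uncorrected counts without a batch term 2 of the 5 calls remained, Slamf9 in 3-month males and Slamf8 in 18-month males. There the differences of Slamf8 were -0.76 in 3-month females and -1.35 in 3-month males (edgeR adjusted p = 0.33 and 0.131), and that of Cd84 was 0.67 (0.154).

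Slamf7 did not pass between the days in any group. Its log2 difference of day 28 from day 12 was -0.39 (95% interval -1.11 to 0.33) in 3-month females, -0.40 (-1.03 to 0.22) in 3-month males and -0.68 (-1.39 to 0.03) in 18-month males. It was 0.59 (-0.93 to 2.11) in 9-month females, -0.41 (-1.32 to 0.50) in 9-month males and 0.81 (-0.69 to 2.31) in 18-month females. Each of the 6 intervals reaches past a log2 difference of 1 in one direction, below 0 in 4 groups and above 0 in the 9- and 18-month females. Together 5 of 36 member tests passed between the days, against 2.56% of all genes in 3-month females, 5.71% in 3-month males, 4.84% in 9-month females, 0% in 9-month males, 0% in 18-month females and 6.58% in 18-month males. In 9-month males 1202 of 11630 genes and in 18-month females 528 of 11159 had an unadjusted p under 0.05, and DESeq2 called 240 and 23 genes.

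**Figure D4:**
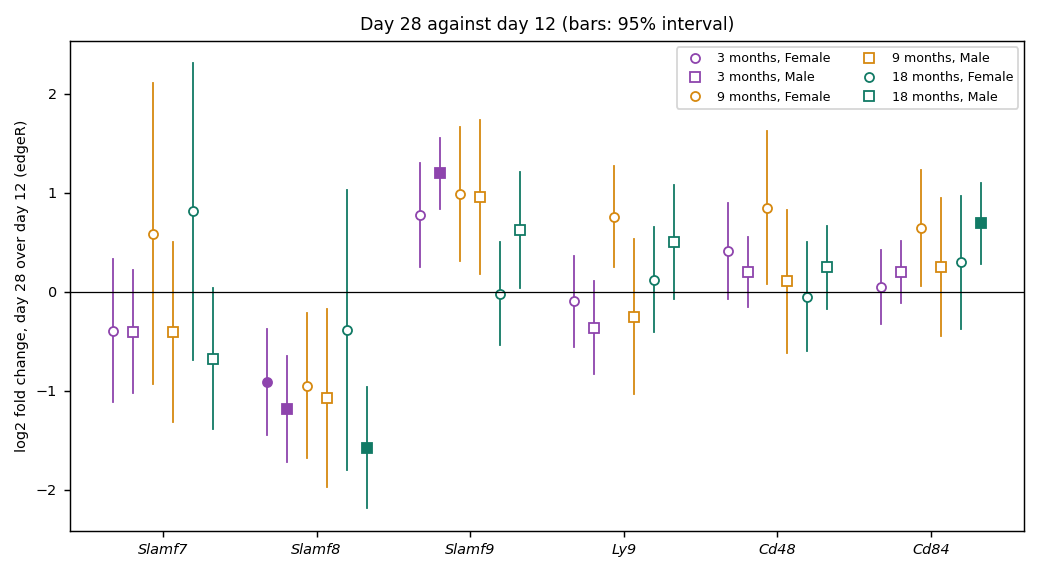
Fitted log2 fold change of day 28 over day 12 for each gene, age and sex, with 95% intervals and filled points where edgeR's adjusted p was under 0.1. Slamf8 lies below 0 in all 6 groups (3 filled), Slamf9 above 0 in 5 (1 filled), and no Slamf7 point is filled.

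Age and sex were compared next. In tests of 9 and 18 months against 3 months at the same sex and day, edgeR called 0 of 72 member tests, with 9 at an unadjusted p under 0.05 and 2 called by DESeq2, against 0.106% of all gene tests. The lowest adjusted p was that of Slamf9 in females at day 28, with a log2 difference of 18 from 3 months of -0.64 ± 0.19 (edgeR adjusted p = 0.185). Naive Slamf7 was higher in 9-month than 3-month females by log2 3.83 ± 0.84 (edgeR adjusted p = 0.999), which went to 2.23 ± 0.73 without the naive library at 211 CPM. These were the 2 tests that DESeq2 called. The study lists Slamf8 among genes upregulated in 18- against 3-month females at day 28 (adjusted p under 0.1, DESeq2), which neither tool called here. The left-out library of that older group held Slamf8 at 353 CPM in uncorrected counts. With that library put back, edgeR still called 0 of the age tests.

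For sex, the response of males minus that of females was tested at each age. edgeR called 0 of 36 member tests, with 6 at an unadjusted p under 0.05 and 0 by DESeq2, against 0.0124% of all gene tests. The widest differences were those of Slamf7 at 9 months, 4.67 ± 1.11 (log2) at day 12 and 3.65 ± 1.07 at day 28 (edgeR adjusted p = 0.976 and 0.942). Without the naive 9-month female library at 211 CPM they were 3.09 ± 0.89 and 2.07 ± 0.88 (edgeR adjusted p = 0.932 and 0.934). For the difference of the response at 18 and 3 months, 0 of 24 passed in edgeR, with 3 at an unadjusted p under 0.05 and 1 by DESeq2, against 0.0894% of all gene tests. In females the Slamf7 response at day 12 differed between 18 and 3 months by log2 -3.36 ± 0.86 (edgeR adjusted p = 0.126), and this was the test that DESeq2 called. The 2 female day 12 libraries at 18 months with T cell sums of 1.60 and 12.5 CPM enter that value.

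Among the remaining SLAM receptors and their ligands, Cd244a (2B4, the receptor for CD48) rose most often. It was at 13.4 CPM ± 6.01 (SD, n = 19) in naive libraries, 110 CPM ± 64.5 (n = 22) at day 12 and 57.8 CPM ± 17.4 (n = 21) at day 28. Every library after the vector was above every naive one of its age and sex. It passed edgeR's test in 4 of 6 groups at day 12 (log2 2.47 to 4.601 in 3-month males, 9-month females, 9-month males and 18-month males) and in 3 of 6 at day 28 (2.24 to 3.08). T and NK cell markers were also higher after the vector, and the part of lymphocyte RNA in Cd244a was not tested. Cd2, another CD48 receptor and mainly a T and NK cell gene, passed at day 12 in 4 of 6 groups, from a naive median of 0 to 16.7 CPM at day 12. T cell markers were higher in the same libraries. At day 28, 0 of 6 groups passed, but the fitted difference of Cd2 was above 0 in 6 of 6 (median log2 4.82). With both sexes in one fit and the test against 0, Cd2 passed on day 28 at 3 and 9 months (log2 3.27 and 6.12). At 18 months it did not. Slamf6 lay at 113 CPM ± 21.1 naive, 141 CPM ± 29.2 at day 12 and 159 CPM ± 30.5 at day 28, and Slamf1 at 8.74 CPM ± 6.54, 8.60 CPM ± 3.40 and 8.35 CPM ± 2.36. For both, no group passed the test against a log2 fold change of 1. With both sexes in one fit and the test against 0, Slamf6 rose at 3 months on both days (log2 0.56 and 0.68). It also rose at 18 months on day 12 (0.60), and Slamf1 passed in none. That test called 8 of 12 tests of this list at day 12 and 6 of 12 at day 28, and its shares over all genes are given above.

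Of the 10 adaptors and effectors, 9 were tested and edgeR's test against a log2 fold change of 1 called 0 at either day in any group (5 of 108 tests had an unadjusted p under 0.05, and DESeq2 called 0), with a median log2 difference over the list of 0.08 to 0.39 at day 12, beside medians of -0.01 to 0.11 over all genes. Sh2d1b1, the EAT-2 adaptor through which Slamf7 signals in NK cells, was at 13.3 CPM ± 7.57 in naive libraries, 11.1 CPM ± 5.53 at day 12 and 9.47 CPM ± 5.54 at day 28. Sh2d1a was at 3.09 CPM ± 1.93, 7.46 CPM ± 4.26 and 7.61 CPM ± 4.74, and Sh2d1b2 was listed at 0 in every library. Of the 6 integrin and ITAM partners (Itgam, Itgb2, Fcer1g, Tyrobp, Syk and Btk) 0 passed that test at either day (0 of 72 had an unadjusted p under 0.05, and DESeq2 called 0), with list medians of -0.02 to 0.40 at day 12. With both sexes in one fit and the test against 0, edgeR called 4 of 27 adaptor tests at day 12 (Fyn higher at 3 and 9 months, Sh2d1a higher and Inpp5d lower at 18 months) and 1 at day 28 (Sh2d1a at 18 months). For the integrin and ITAM partners it called 3 of 18 at day 12 (Fcer1g, Tyrobp and Itgb2 at 3 months) and 2 at day 28 (Fcer1g and Tyrobp at 3 months). Over all genes this test passed 24.3%, 15.6% and 14.5% at day 12 at 3, 9 and 18 months. At day 28 it passed 6.81%, 2.64% and 3.63%. The day 12 counts of both lists were near those shares and are no result about the lists. Itgam, the alpha chain of Mac-1, differed from naive by log2 -0.03 to 0.82 at day 12.

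Of 6 NADPH oxidase 2 genes, only Cybb (gp91phox, the catalytic subunit) passed edgeR's test against a log2 fold change of 1. It passed at day 12 in 4 of 6 groups, by log2 2.51 to 3.86. Over all libraries it was at 80.7 CPM ± 30.2 in naive ones, 575 CPM ± 241 at day 12 and 203 CPM ± 65.02 at day 28. The monocyte markers were likewise highest at day 12, and their part in Cybb and Slamf8 was not tested. Among the groups where both passed, the 4 day 12 libraries of 3-month females had monocyte sums of 4.66 to 36.8 CPM, against 1.92 to 13.8 CPM in naive ones. The day 12 sums were 11.8 to 350 CPM in 3-month males, 16.1 to 63.3 CPM in 9-month females and 170 to 352 CPM in 18-month males. The 4 groups were those in which Slamf8 passed. In 9-month males and 18-month females 0.954% and 0% of all genes passed at day 12, so few calls could be shared there. By mean CPM Cybb was 6.44 and 4.14 times naive in these groups, and Slamf8 3.88 and 2.78 times. Cybb also passed at day 28 in 18-month males (2.32). From day 12 to day 28 it fell in 4 of 6 groups (log2 -1.54 to -1.69), and Rac2, the small GTPase of the complex, in 3 (-0.89 to -1.10). With both sexes in one fit and the test against 0, edgeR called 7 of 18 tests higher at day 12. The 7 were Cybb and Rac2 at all ages and Cyba at 3 months. It called 1 lower, Ncf4 at 3 months. At day 28 it called 4 higher, Cybb at all ages and Cyba at 3 months. Over all genes this test passed 24.3%, 15.6% and 14.5% at day 12 at 3, 9 and 18 months. At day 28 it passed 6.81%, 2.64% and 3.63%. By the test against a log2 fold change of 1, the 4 lists together gave 16 calls in 300 tests over the 12 comparisons with naive. That is 5.33%, against 1.35% of all gene tests there, and all were Cd244a, Cd2 or Cybb. DESeq2 called 18, and 25 passed without the filter on low counts.

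Across the 18 group means (log2 CPM), the genes most like Slamf7 of 13584 were Npc2 (Pearson r = 0.963), Cd63 (0.955) and B2m (0.953). Those most like Slamf8 were Fgl2 (0.985), Iigp1 (0.983) and Gbp8 (0.981). Slamf9 was most like Jkamp, Ebpl and Msmo1 (0.909, 0.904 and 0.875), Ly9 like Timp2, Slc1a3 and Adgre1 (0.916, 0.914 and 0.898), Cd48 like Pon3, C1qc and Ccnt2 (0.914, 0.903 and 0.894) and Cd84 like Slc39a4, Apoe and Pon3 (0.89, 0.878 and 0.861). Among the members, the pairs most alike were Slamf7 and Ly9 (r = 0.853) and Slamf7 and Slamf8 (0.819), and the least alike were Slamf8 and Slamf9 (-0.394). With Spearman correlation, 1 of the 3 genes stayed among the top 3 for Slamf7 and for Slamf8, 2 for Slamf9 and for Cd84, and 0 for Ly9 and for Cd48. All of these share libraries and depth, and are descriptions over 18 points.

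The neighbours of the members were looked at next. The block from Ly9 to Slamf8 holds 27 protein-coding genes, of which 19 are of other families and 12 of those could be tested. Of the 12, only Kcnj9 (named after its values were seen) passed in a group at day 12, and 0 passed at day 28, and their median log2 differences lay between -0.92 and 0.69 at day 12 and between -1.13 and 0.49 at day 28. The median log2 difference at day 12 was -0.26 for Slamf9 and 2.498 for Slamf8, which are at the same end of the block. It was 0.79 for Ly9 and 0.23 for Cd48, which lie on either side of Slamf7, and 4.88 for Slamf7 itself. Cd244a lies just outside the block, beyond Ly9, with its midpoint at -70.7 kb from that of Slamf7. Its median log2 difference was 3.51 at day 12, above that of Slamf8, and 2.25 at day 28.

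**Figure D5:**
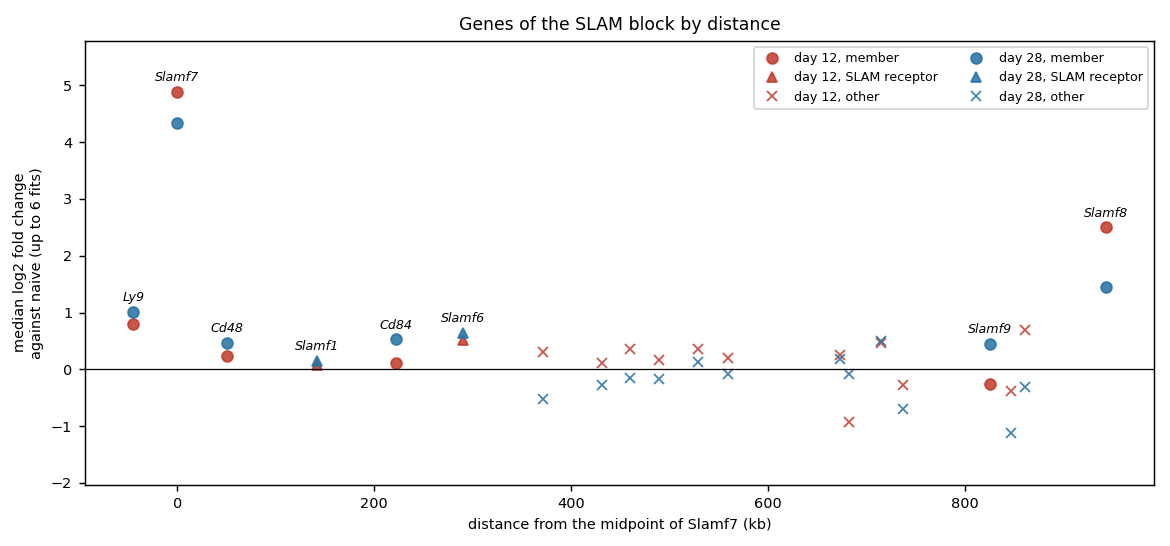
Median log2 fold change against naive over up to 6 age and sex fits (y axis) of the genes of the block, by distance in kb from the midpoint of Slamf7 (x axis), at day 12 and day 28, with members as circles, other SLAM receptors as triangles and genes of other families as crosses. Among the genes of this block, Slamf7 and Slamf8, 943 kb apart, stand above the rest. Cd244a, just outside the block next to Ly9, is not drawn.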

How the data were processed

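RNA-seq was made from 600 sorted cells per retina (SMART-seq v4, 16 PCR cycles, Nextera XT, single-end reads). Per the labels and the study's methods, the authors used bcl2fastq 2.20, STAR 2.7.8a on mm10, featureCounts and, for collection day, ComBat_seq in R 4.2.2. The deposited values are read counts per gene, uncorrected and corrected, and the corrected counts were used, which can narrow the spread within groups. PCR duplicates are not separated, so depth covers counting error only.

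Corrected counts were divided by library totals for CPM. Low genes were removed with filterByExpr, and edgeR 4.0.16 (R 4.3.3) was fitted per age and sex, with glmTreat against a log2 fold change of 1 for each day against naive (adjusted p under 0.05) and the quasi-likelihood test elsewhere (adjusted p under 0.1). DESeq2 1.42.0 was an alternative. Steps were tested on simulated data. The other software was python 3.11.15, pandas 2.3.3 and matplotlib 3.10.9.

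The members and lists were chosen with earlier results of these data known. Named genes are the members, list genes past the test, and for each member the 3 genes with the highest correlation of group means. Slamf1, Slamf6, the adaptors and Itgam were named beside that rule. Of 64 libraries, 1 is not in the corrected table and 1 was left out by the rule. In both, sex-linked genes go against the label, and this was so in 0 of the 62 used.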

Additional observations from a re-analysis of the deposited data

Results flagged for a closer look

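In groups of 4 libraries, 4 values stood apart from the rest of their group by Dixon's test, among 54 sets of 4 values examined, of which chance alone marks about 1 in 20. Slamf7 was at 13.4 CPM in naive 3-month female replicate 3, above the other 3 libraries. Slamf7 was at 314 CPM in 18-month female day 12 replicate 3, above the other 3. Slamf8 was at 74.2 CPM in naive 3-month female replicate 4, also the highest of its group. Cd48 was at 789 CPM in 3-month female day 28 replicate 4, the lowest of its group.

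Both libraries left out of the comparisons had signal in the uncorrected counts. The library labelled 9-month male day 28 replicate 1 held Slamf7 at 294 CPM and Slamf8 at 114 CPM. The library labelled 18-month female day 28 replicate 1 held Slamf7 at 191 CPM and Slamf8 at 353 CPM. The sex-linked genes of both go against their labels.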

How the results depend on the processing

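Of 27 fitted day differences followed (Slamf7 and the members' calls), 0 of 558 values under the alternatives had another sign. Apart from Slamf7 between the days, these are the rise that chose the set and differences that had passed a test. A kept sign was therefore likely beforehand and is no measure of stability. The count covers no other difference. Slamf9 in 18-month females at day 12 was 0.13 above naive in the fit (log2) and 0.959 of naive by mean CPM. At day 12 the count of member tests passed was 4 and became 8 with a test against 0 (chosen after seeing the data), 6 with both sexes in one fit and a test against 0 or with the quasi-likelihood test and a log2 fold change over 1, 3 with all libraries in one fit (Slamf8 in 3-month females was lost) and 4 to 5 without each library in turn. With both sexes in one fit 3 of 15 tests passed. At day 28 it was 0 and became 1 without the filter on low counts, 6 with either quasi-likelihood test, 9 with both sexes and a test against 0, and 0 to 1 without each library (1 without 3-month male day 28 replicate 3). Between the days it was 5 and became 8 with DESeq2, 7 without the filter, 2 on uncorrected counts without a batch term, and 4 to 9 without each library (9 without 9-month female day 12 replicate 1, 8 without naive replicate 1 of that group). For ages it was 0 and became 2 with DESeq2 or without the filter, 1 on uncorrected counts with the collection day, with the replicate block or with all libraries in one fit, and 0 to 2 without each library. For sex by day it was 0 and became 2 without the filter and 0 to 1 without each library. For age by day it was 0 and became 1 with DESeq2, without the filter, on uncorrected counts with the collection day or with all libraries in one fit, and 0 to 1 without each library. The lists went from 16 to 12 on uncorrected counts without a batch term, 13 with all libraries in one fit or both sexes in one fit, 25 without the filter, 31 and 40 with the 2 quasi-likelihood tests and 36 with both sexes and a test against 0, and 14 to 18 without each library. Replicate numbers did not pair the libraries (mean correlation of deviations -0.0114 over 464 same-numbered pairs and 0.00407 over 1348 others). With the replicate block the counts were 4 at day 12, 0 at day 28, 4 between the days and 14 for the lists. The call for Slamf8 between the days in 3-month females was lost without any of 7 libraries, and that for Cd84 in 18-month males without any of 4. The fitted log2 difference of Slamf7 from naive in 3-month females went from 5.77 to 6.51 at day 12 and 5.38 to 6.11 at day 28 without naive replicate 3. In 9-month males, with 1 naive library left and assumed to vary like the other groups, it was 6.91 or 5.43 at day 12 and 6.49 or 5.03 at day 28. The causes were not tested. Groups of 2 to 4 limit these tests.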
